A study of Rangifer tarandus with 4 samples.

Results

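Keratins and keratin-associated proteins are the structural proteins of epidermis, horn and hair, and the gene models behind them are described here across the annotation deposited with a single-cell study of reindeer blood. The members were the protein-coding genes whose symbol begins with KRT and a digit, or with KRTAP. This rule took 64 of 21861 protein-coding genes, namely 26 type I keratins, 24 type II keratins and 14 KRTAP genes. No member symbol was carried by more than 1 gene.

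The study prepared 3′ single-cell RNA libraries from mononuclear cells of reindeer (Rangifer tarandus) blood, taken, by the series title, 3 days after wounding. The back group holds 2 libraries of blood from the saphenous vein, and the antler group holds 2 libraries of blood from the distal antler velvet. About 12000 cells were loaded per library, and the labels give neither age nor strain, nor what the 2 codes in the titles mark. The counts of these libraries were not analysed here, so nothing below is an expression level or a difference between antler and back, and the cell identity of the libraries was not checked. The material was a list of cattle (Bos taurus) gene models on the assembly ARS-UCD1.2, without sequence. Positions are on that assembly and count from 1.

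A keratin filament is built from heterodimers of a type I, acidic keratin and a type II, basic keratin, each with a central alpha-helical rod between a variable head and tail. Epithelia differ in the partners they express. KRT8 and KRT18 belong to simple epithelia, KRT5 and KRT14 to basal cells of stratified epithelia, KRT1 and KRT10 to differentiating epidermis, and a further set to the inner root sheath and shaft of hair. KRTAP proteins are small proteins rich in cysteine, or in glycine and tyrosine, that form the matrix around the keratin filaments of hair. Sites of expression given below are those known from human and mouse and were not measured here.

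All 64 members lay in 4 blocks on 3 chromosomes, where neighbouring members were at most 1000000 bases apart. Type II keratins formed a block on chromosome 5 from 26998530 to 27757234, type I keratins a block on chromosome 19 from 40860845 to 41849264, and the KRTAP genes were split between chromosome 19, with 5, and chromosome 1, with 9. Starting and ending within the blocks, 0 genes besides the members carried a symbol, and TSPEAR spanned the smaller block of chromosome 1 whole. The genes interspersed among members were all without a symbol, 9 on chromosome 5, 34 on chromosome 19, and 15 and 1 in the chromosome 1 blocks.

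**Figure D1:**
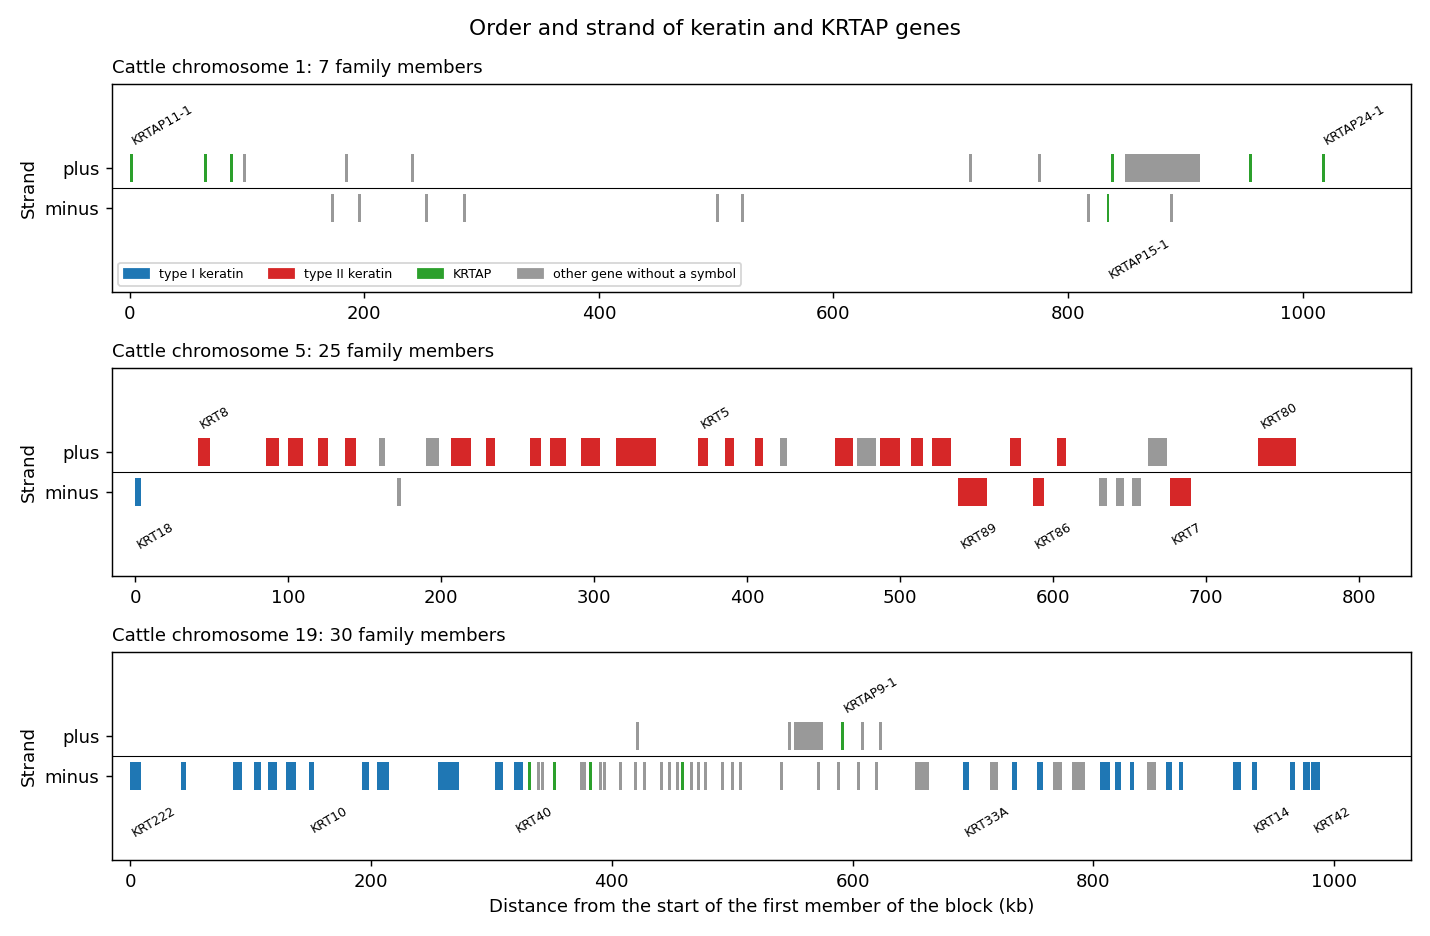
Genes of the 3 blocks with more than 2 members, by distance from the start of the block's first member (x axis, kb) and strand (y axis). Each bar is 1 gene, coloured by class, and genes shorter than 2.5 kb are drawn 2.5 kb wide. The 25 type I keratins on chromosome 19 all lie on the minus strand, in 12 and 13 on either side of a stretch of KRTAP genes and genes without a symbol, and 21 of 25 members on chromosome 5 lie on the plus strand.

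The chromosome 5 block ran from KRT18 (ENSBTAG00000001517, 26998530 to 27002595, minus strand) to KRT80 (ENSBTAG00000007204, 27732717 to 27757234, plus strand). KRT18 is the partner of KRT8 in simple epithelia, and it was the single type I keratin outside chromosome 19. It stood beside KRT8 (ENSBTAG00000000836, 27039437 to 27047690, plus strand), with 36841 bases and 0 other genes between them. The genes point away from each other. Besides KRT18, KRT89, KRT86 and KRT7 lay on the minus strand. KRT86 is a hair keratin, and KRT7 a keratin of simple and glandular epithelia. KRT18 opened the block, and the other 3 were among its last 6 members, whereas the 18 members from KRT8 to KRT85 were in a row on the plus strand.

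The chromosome 19 block began with KRT222 (ENSBTAG00000030539, 40860845 to 40870069), ended with KRT42 (ENSBTAG00000047262, 41841920 to 41849264) and had 1 member on the plus strand, KRTAP9-1 (ENSBTAG00000052160, 41451564 to 41453021). From KRT222 to KRT40 came 12 keratins, among them the inner root sheath keratins KRT25, KRT26, KRT27 and KRT28 side by side and then KRT10. After KRT40 followed 365494 bases without a keratin, which held all 5 KRTAP members of this chromosome and 30 genes without a symbol. KRT33A opened the second row of 13 keratins, which ran through the hair keratins KRT34, KRT31, KRT32, KRT35 and KRT36 to the epithelial keratins KRT15, KRT19, KRT9, KRT14, KRT16 and KRT17. Elsewhere in the block, the largest distance between neighbouring keratins was 47213 bases. The closest members of the whole family were KRT17 and KRT42, with 1493 bases between them.

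Keratin gene models were compact, by spans that cover all transcripts of a gene. A type I keratin spanned a median of 5683.5 bases (range 3636 to 17558) and a type II keratin 8451 bases (5513 to 26674), against 14041 bases over all protein-coding genes. The coding sequence filled a median of 23.8% of the span of type I keratins and 17.8% of that of type II keratins, against 8.44% over all protein-coding genes. Their introns were shorter, with a median of 470 bases over 175 introns of type I and 588.5 bases over 194 introns of type II, against 1311 bases over all protein-coding genes. KRT23 was the longest type I gene with 17558 bases, with 7680 of them in its first intron. KRT74, an inner root sheath keratin, was the longest type II gene by span over all its transcripts. Its transcript with the longest coding sequence held only 2679 exon bases and 5839 intron bases. KRT80 spanned 24518 bases, with 2159 exon bases and 22359 intron bases in that transcript. These values describe every member in the annotation, so medians are given with ranges and without tests. Gene models of 1 family resemble each other and are not independent replicates.

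Type II keratins had 1 more exon and a longer coding sequence than type I keratins, with overlap between the types. In the transcript with the longest coding sequence, type I keratins had a median of 8 exons (6 to 9) and type II keratins 9 exons (8 to 11), against 6 exons over all protein-coding genes. The median coding length was 1359 bases (885 to 1584) for type I and 1624.5 bases (1398 to 1884) for type II, a difference of 265.5 bases. Of the 24 type II keratins, 14 were longer than every type I keratin, and 0 were shorter than the type I median. Over all protein-coding genes the median was 1146 bases (quartiles 726 and 1878). Every member has a symbol, and over protein-coding genes with a symbol the medians were 8 exons and 1344 bases. Type I keratins were therefore close to named genes at large in both measures.

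KRT19 and KRT83 marked the ends of the range in exon number. KRT19, a keratin of simple epithelia with almost no tail, had the fewest exons of all keratins, 6, and 1197 coding bases. KRT222 was the shortest keratin with 885 coding bases in 7 exons, and KRT9, the keratin of palm and sole epidermis, the longest of type I with 1584. Among type II keratins, KRT3, a keratin of the cornea, had the longest coding sequence, 1884 bases in 8 exons, and KRT7 the shortest, 1398 bases. KRT83, a hair keratin, had the most exons, 11. KRT2, KRT1 and KRT5 followed KRT3 with 1857, 1818 and 1791 coding bases, all of them keratins of stratified epithelia.

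**Figure D2:**
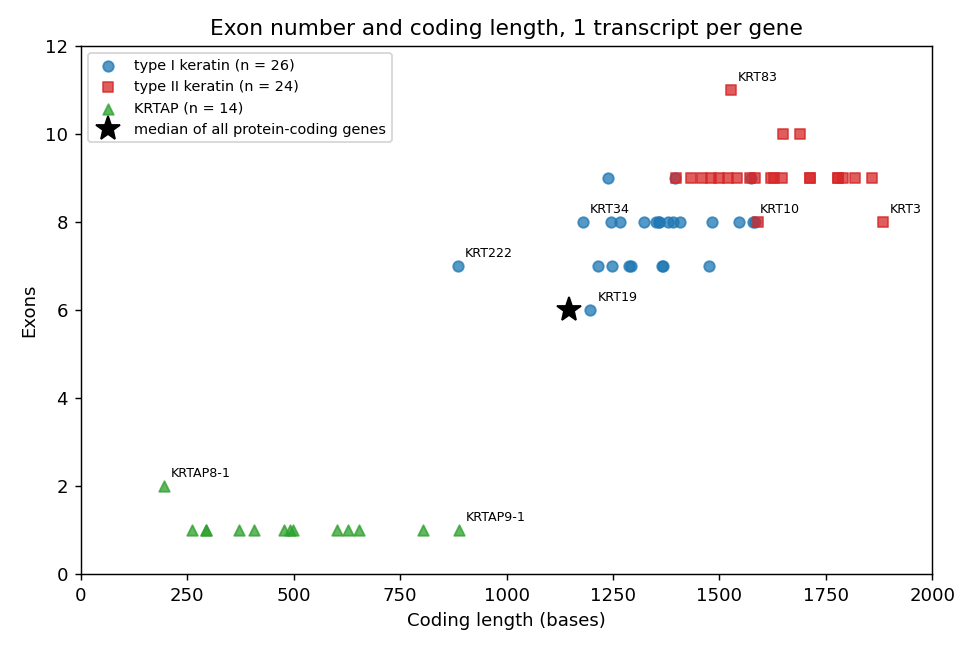
Exon number (y axis) against coding length in bases (x axis) of the 64 members, each point a gene model read from the transcript with the longest coding sequence; the star marks the medians of all protein-coding genes. KRTAP genes sit at 1 or 2 exons and at most 888 coding bases, type I keratins between 6 and 9 exons, and type II keratins between 8 and 11 exons.

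Most type I keratins were cut into coding segments of the same lengths in the same order. In 21 of 26 type I keratins the coding sequence contained segments of 83, 157, 162 and 126 bases in a row, in 12 of these followed by 221 bases. Over the whole annotation 24 genes held this row of 4 segments, and the other 3 were genes without a symbol inside the chromosome 19 block. The 5 type I keratins without it were KRT18, KRT23, KRT16, KRT34 and KRT222. KRT18 had 165 bases in place of 162, and KRT23 had 123 in place of 126. The inner root sheath keratins KRT25 to KRT28, together with KRT10 and KRT24, had a next segment of 218 bases, and KRT9 of 224 bases. These rows of lengths were picked after the members' models had been seen and are given as a description.

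Type II keratins shared another row. Segments of 61, 96 and 165 bases stood in a row in 23 of 24 type II keratins, in 20 of them followed by 126 and 221. All 29 genes with the row of 3 were on chromosome 5 inside the block, the other 6 being genes without a symbol. KRT2, the exception, had 61, 125 and 142 bases. The row of type II adds up to that of type I at one place: the 157-base segment of type I keratins has the summed length of the 61-base and 96-base segments of type II. In all 23 type I and all 23 type II keratins that held these segments, the stretch of 157 bases followed an intron in phase 2 (after the second base of a codon) and ended at an intron in phase 0 (between codons). A stretch of 157 bases that starts in phase 2 has to end in phase 0, so the second phase is no separate observation. In type I keratins the 83-base segment before it, part of the picked row, also sets phase 2 wherever it starts between codons.

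**Figure D3:**
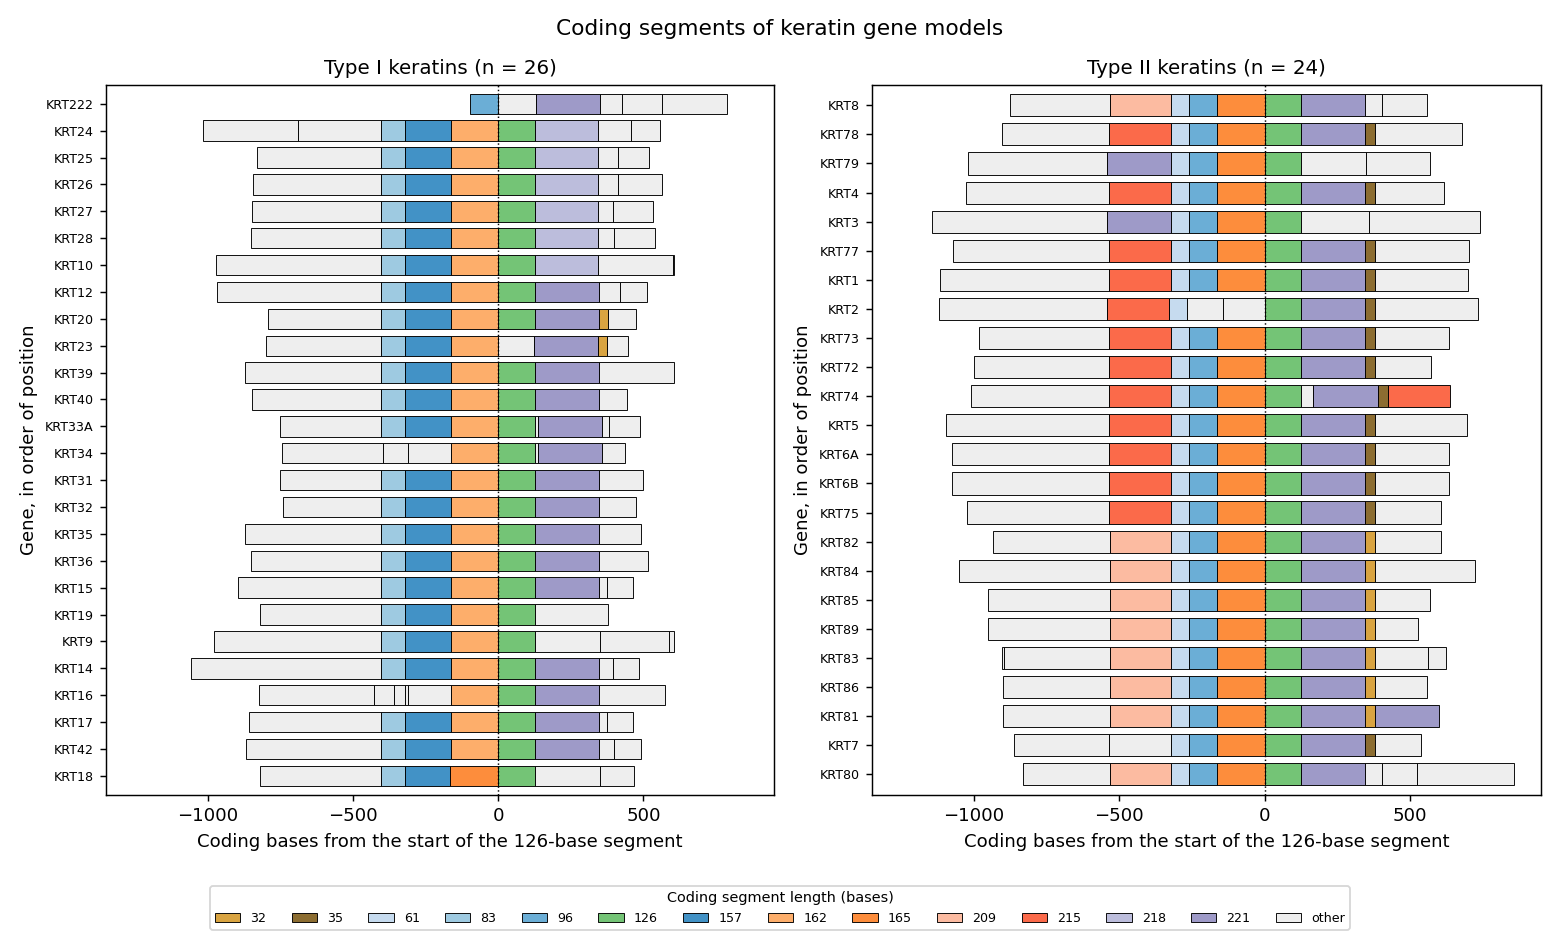
Coding segments of each keratin, in order of position, drawn to scale along the coding sequence (x axis, coding bases from the start of the 126-base segment; KRT23 is placed at its 123-base and KRT222 at its 129-base segment). Colour marks a segment's length wherever it stands. The columns of equal colour are the rows shared by 21 type I keratins (83, 157, 162 and 126 bases) and by 23 type II keratins (61, 96 and 165 bases), while the outer segments vary in length.

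Hair keratins and epithelial keratins of type II differed in the segments at either end of the shared row. All 6 type II hair keratins, KRT81 to KRT86, had 209 bases before the row and 32 bases after 221, and so did KRT89 and 3 genes without a symbol. Of the 14 type II keratins of stratified epithelia and of the inner root sheath and companion layer, 10 had 215 bases before and 35 after, among them KRT1, KRT4, KRT5, KRT6A, KRT6B and KRT75. KRT74 and KRT2 had the same 215 and 35 bases around a row that differed inside, KRT74 by an added segment of 42 bases. KRT79 and KRT3 had 221 bases before the row. KRT8 and KRT7, of simple epithelia, had 209 and 212 bases before the row, and 59 and 35 after the 221-base segment.

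Most type I hair keratins had 1 exon fewer than the type I keratins of skin and root sheath. Of 8 type I hair keratins, 6 had 7 exons, with a single coding segment after the 221-base segment that measured from 97 bases in KRT40 to 259 bases in KRT39. KRT31, a keratin of the hair cortex, ended with 151 bases there. Of the 11 type I keratins of stratified epithelia and of the inner root sheath, 10 had 8 exons, and KRT16 had 9. In KRT14, KRT15 and KRT17 the end was split into 47, 26 and 26 bases and then 92 bases in each. Neither a single end segment nor 7 exons was confined to hair keratins. KRT16 ended with a single segment of 226 bases after 221, and KRT18, of simple epithelia, also had 7 exons.

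On either side of the shared row, keratins differed in the amount of coding sequence. Before the shared row of 749 bases, the 12 type I keratins with the full row had from 339 coding bases (KRT32) to 657 (KRT14), and after it from 97 (KRT40) to 259 (KRT39). The 20 type II keratins with the full row of 669 bases had from 509 (KRT80) to 794 (KRT1) before it and from 181 (KRT89) to 511 (KRT80) after it. Their coding length ranged from 1215 to 1545 bases in type I and from 1398 to 1818 in type II. These members were picked for holding the row, so the row itself could not vary, and the borders of the protein's head, rod and tail were not located.

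Members with the same exon number and coding length were few. KRT6A and KRT6B, keratins of wounded and stratified epithelia, had the same coding length, 1713 bases, and the same 9 segments, and so did ENSBTAG00000040019, a gene without a symbol between KRT6B and KRT75. KRTAP3-1 and KRTAP3-3 each had 294 coding bases in 1 exon. KRT15 and KRT42 had 8 exons and 1359 bases each, and KRT77 and KRT84 had 9 exons and 1779 bases each, but in both cases their segments differed. Equal lengths do not show equal sequence. The likeness of these genes in sequence was not examined, nor was how reads from them were assigned.

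Several keratin models held introns shorter than 50 bases. There were 6 such genes among the 51 members with introns, or 11.8%, against 4.06% of all protein-coding genes with introns. They were 5 of 26 type I keratins, or 19.2%, and 1 of 24 type II keratins, or 4.17%, which is close to the share of all genes. The shortest introns were 30 bases in KRT83, 32 in KRT16, 36 in KRT24, 40 in KRT222, and 48 in KRT33A and KRT34. In KRT33A and KRT34 the short intron preceded a coding segment of 12 bases between the 126-base and the 221-base segments. The stretch of 48, 12 and 111 bases sums to 171 bases, the length of the intron at the same place in KRT31. KRT16, a keratin of wounded epidermis, had 395, 67, 38, 10 and 150 coding bases where its neighbour KRT17 had 456, 83 and 157. In the same transcript, 5 of these 6 models had no 3′ UTR, against 6 of the other 45 members with introns. KRT33A and KRT34 had one in another transcript, and KRT24, KRT16 and KRT83 in none. Counted over any transcript, 3 of the 6 models had no 3′ UTR, against 6 of the other 45. On that measure, a 3′ UTR was missing from 590 of 776 protein-coding genes with a short intron and 4599 of 18347 others with introns. A missing 3′ UTR beside a short intron was therefore not particular to keratins. Of the 776 genes, only 364 have a symbol, as the 6 members do, and genes without a symbol have a 3′ UTR less often. The share among the 364 alone was not taken. What the short introns of the 6 members arose from was not tested.

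KRTAP genes were short and almost all of 1 exon. A single exon was annotated for 13 of 14, or 92.9%, against 12.5% of all protein-coding genes and 0 of 50 keratins. The median coding length was 484.5 bases (195 to 888), against 936 bases over all single-exon protein-coding genes, and 13 of 14 were shorter than every keratin. The shortest was KRTAP8-1 (ENSBTAG00000015812, chromosome 1, 4759050 to 4760169, plus strand), a protein rich in glycine and tyrosine, with 195 coding bases. It was also the single KRTAP gene with an intron, of 922 bases after a coding segment of 29 bases, and the single one without an annotated start codon. KRTAP7-1, of the same glycine and tyrosine rich kind, had 261 coding bases. The longest were the cysteine-rich KRTAP9-1 with 888 and KRTAP24-1 with 804 coding bases.

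The chromosome 1 KRTAP genes lay in 2 places. The first block ran from KRTAP11-1 (ENSBTAG00000034869, 4673635 to 4674514, plus strand) to KRTAP24-1 (ENSBTAG00000046384, 5689903 to 5690709, plus strand) and held 7 members. KRTAP15-1 was its only member on the minus strand. Between KRTAP8-1 and KRTAP15-1 stretched 746372 bases with 12 genes, all without a symbol. The second block held KRTAP10-8 (ENSBTAG00000040291, 144560582 to 144561641, plus strand) and KRTAP12-2 (ENSBTAG00000018610, 144579697 to 144580388, plus strand). Both lay inside intron 1, of 82815 bases, of TSPEAR, which runs on the minus strand, and shared 0 exon bases with it.

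Genes without a symbol outnumbered named KRTAP genes on chromosome 19 and in the first block of chromosome 1, but not in the second, which held 2 members and 1 such gene. Between KRT40 and KRT33A stood 5 KRTAP members and 30 genes without a symbol. Of these 30, 26 had 1 exon, with a median coding length of 567 bases (294 to 756), and 25 lay on the minus strand like 4 of the 5 KRTAP members. A coding length of 627 bases, that of KRTAP4-7, was found in 4 of them. Over all blocks with KRTAP members, 40 single-exon genes had no symbol, with a median coding length of 411 bases (189 to 903). Which family they belong to is not stated in the annotation, and no name is given to them here.

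Among the interspersed genes without a symbol, 10 had rows of coding segments found in keratins. On chromosome 19, 4 held 83 and 157 in a row, ENSBTAG00000030519, ENSBTAG00000000573, ENSBTAG00000053139 and ENSBTAG00000050581, with 7 or 8 exons. That pair of lengths is not confined to the keratin blocks, since 5 genes elsewhere also held it, among them BFSP2, DHX9 and PDE9A. The longer row of 83, 157, 162 and 126 was held by 3 of the 4, and ENSBTAG00000053139 had 173 and 112 after the pair. ENSBTAG00000030519 also had the 12-base segment of its neighbours KRT33A and KRT34. On chromosome 5, 6 held 61, 96 and 165 in a row, with 8 to 10 exons. Of those, ENSBTAG00000052798, ENSBTAG00000054816 and ENSBTAG00000054136 stood side by side on the minus strand between KRT81 and KRT7 and had identical rows of 9 segments and 1440 coding bases. None of these 10 had a 3′ UTR or a 5′ UTR. Among the members with the same rows, a 3′ UTR was annotated for 20 of 23 type I keratins with 83 and 157 and for 20 of 23 type II keratins with 61, 96 and 165. Across the annotation, genes without a symbol also had a 3′ UTR less often, since the share was 65.5% of all protein-coding genes and 79.8% of those with a symbol. The lack of UTRs in the 10 is therefore not given as a trait of genes with these rows. By symbol, KRT13, KRT37, KRT38, KRT71 and KRT76 were among 11 of 60 keratin symbols without a match, not analysed here.

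In libraries read from the 3′ end, reads fall near the end of the transcript, so the 3′ UTR of a model bears on whether they can be counted. A 3′ UTR was annotated for 51 of 64 members, or 79.7%, close to the 79.8% of all protein-coding genes with a symbol and above the 65.5% of all protein-coding genes. By class the counts were 22 of 26 type I keratins, 20 of 24 type II keratins and 9 of 14 KRTAP genes, or 84.6%, 83.3% and 64.3%. Among single-exon genes with a symbol the share was 28.8%. With the 40 single-exon genes without a symbol from the KRTAP blocks added, an alternative chosen after seeing the data, the KRTAP share was 22.2% of 54. With the genes without a symbol that held keratin rows added in the same way, the shares also fell. They were 73.3% of 30 for type I and 66.7% of 30 for type II, the latter close to that of all protein-coding genes. The keratins without a 3′ UTR were KRT24, KRT12, KRT39, KRT16, KRT79, KRT3, KRT2 and KRT83. KRT12 and KRT3 are the keratin pair of the cornea, KRT2 marks upper epidermis, and KRT39 and KRT83 are hair keratins. The KRTAP genes without one were KRTAP7-1, KRTAP8-1, KRTAP15-1, KRTAP27-1 and KRTAP24-1, all in the first block of chromosome 1, while all 5 KRTAP genes of chromosome 19 had one.

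Where a 3′ UTR was annotated, it was short in all 3 classes. The median of the longest 3′ UTR per gene was 280 bases in type I keratins (61 to 1214), 487.5 bases in type II keratins (159 to 1980) and 364 bases in KRTAP genes (262 to 464), against 626 bases over all protein-coding genes that had one. The shortest was that of KRT18 and the longest that of KRT80. KRTAP genes had the narrowest range, and the ranges of the classes overlapped. Apart from KRT222, with 1214 bases, and KRT20, a keratin of gut epithelium, with 677, no type I keratin exceeded 404 bases.

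Within hair keratins, type II members had longer 3′ UTRs than type I members without overlap. The 5 type II hair keratins with a 3′ UTR had 433 bases in KRT81, 565 in KRT86, 790 in KRT84, 809 in KRT85 and 1006 in KRT82. The 7 type I hair keratins with one had from 216 bases in KRT36 to 404 in KRT33A, with a median of 329 bases. All 5 values of type II were above all 7 of type I, and KRT83 and KRT39 had no 3′ UTR. In the inner root sheath and companion layer the order was the same, with 174 to 342 bases in the 4 type I keratins and 408 to 1723 bases in the 4 type II keratins. KRT75, of the companion layer, had the longest of these. Among keratins of stratified epithelia, type I members had 136 to 365 bases in 5 genes and type II members 378 to 490 bases in 7 genes. The 5 keratins of simple epithelia had 61 bases in KRT18, 128 in KRT19, 159 in KRT7, 225 in KRT8 and 677 in KRT20, so that there the types overlapped.

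**Figure D4:**
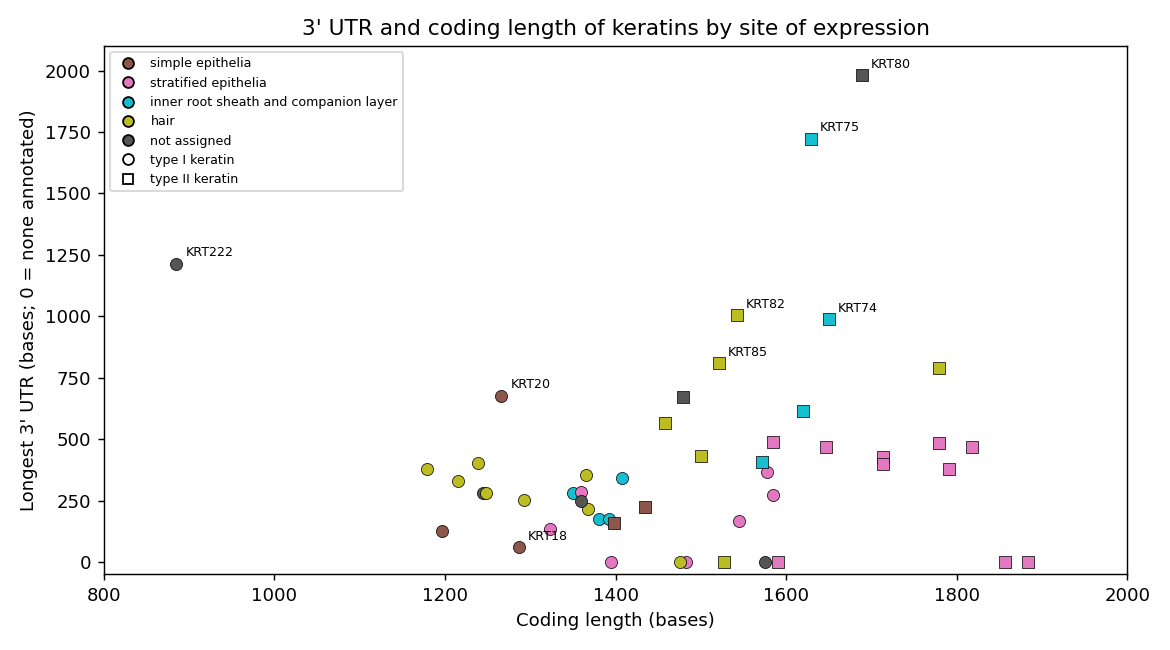
Longest 3′ UTR (y axis, bases, 0 where none was annotated) against coding length (x axis, bases) of the 50 keratins. Circles are type I and squares type II, and colour gives the site of expression known from human and mouse. The hair keratins of type II with a 3′ UTR (433 to 1006 bases) lie above those of type I (216 to 404 bases).

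By class median, the 5′ UTRs were shorter than those of all protein-coding genes. A 5′ UTR was annotated for 49 of 64 members, or 76.6%, and each of the 49 also had a 3′ UTR. The share was 66.4% of all protein-coding genes and 80.6% of those with a symbol. KRT42 and KRT1, a keratin of upper epidermis, had a 3′ UTR of 248 and 468 bases and no 5′ UTR, and 13 members had neither. The median 5′ UTR was 57 bases in type I keratins, 136 bases in type II keratins and 40 bases in KRTAP genes, against 208 bases over all protein-coding genes that had one. By site of expression, the keratin median of simple epithelia was 238 bases (5 genes, 58 to 911), above 208. That of stratified epithelia was 221 bases (11 genes, 4 to 714), also above it. Below it were the inner root sheath and companion layer, 42.5 bases (8 genes, 1 to 916), and hair, 56.5 (12 genes, 19 to 685). Keratins without an assigned site, 63.5 (4 genes, 41 to 384), were below it too. The ranges of all these sites overlapped. The longest were 916 bases in KRT74 and 911 in KRT8, and the shortest 1 base in KRT28 and 4 bases in KRT10.

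**Figure D5:**
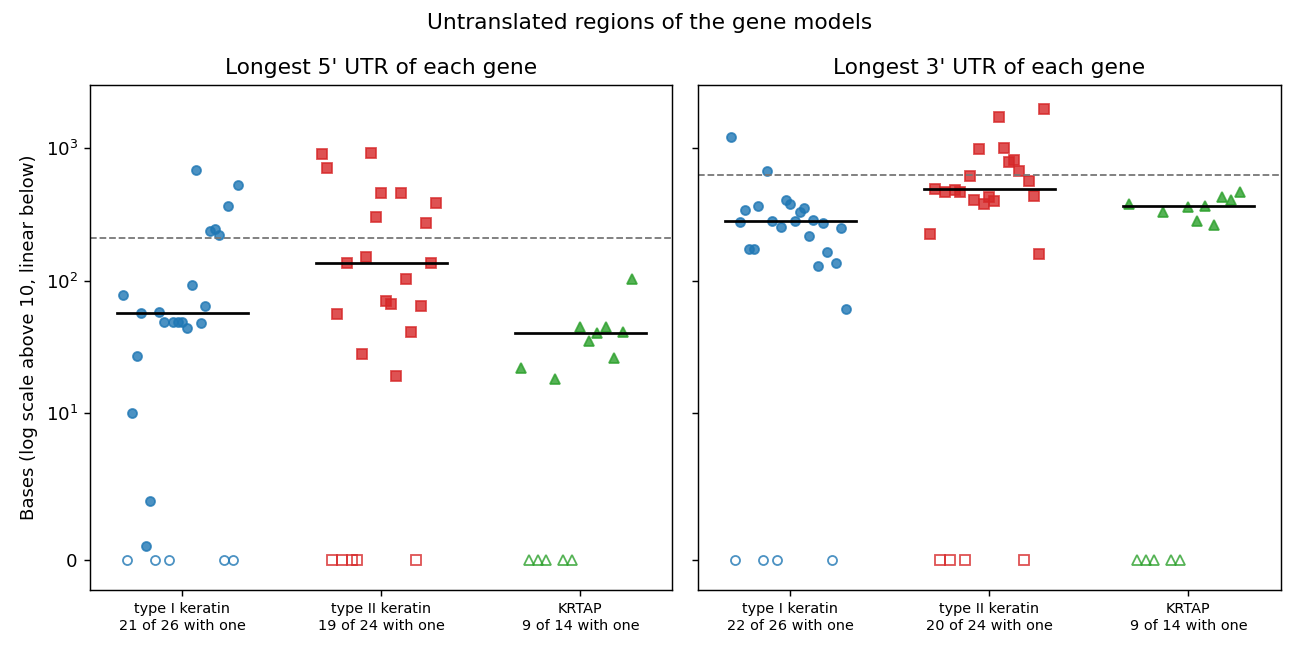
Longest 5′ UTR (left) and 3′ UTR (right) of each member in bases, on a scale that is logarithmic above 10 and linear below. Each point is 1 gene, open points at 0 have none annotated, black lines are class medians over genes that have one, and dashed lines are the medians of all protein-coding genes that have one (208 and 626 bases). Class medians of 57, 136 and 40 bases for the 5′ UTR and of 280, 487.5 and 364 bases for the 3′ UTR all lie under the dashed lines.

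For 4 members a UTR length came from another transcript than the one with the longest coding sequence. The 3′ UTR of KRT80 measured 1980 bases over all transcripts and 83 bases in the transcript with the longest coding sequence. KRT33A and KRT34 had 3′ UTRs of 404 and 380 bases in other transcripts and none in that one, and the 5′ UTR of KRT74 went from 916 to 39 bases. Several transcripts were annotated for 21 members, or 32.8%, against 37.7% of all protein-coding genes and 46.1% of those with a symbol. All 21 were keratins, 42% of the 50. Of the 2738 single-exon protein-coding genes of the annotation, 0 had several transcripts, so the lack of them in KRTAP genes is shared with single-exon genes at large.

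Exon bases overlapping those of a further gene were found in 0 members on either strand, against 1.75% of all protein-coding genes within a strand and 8.11% over both. Downstream of a gene's end, the distance to the following gene of equal strand had a median of 10348.5 bases in type I keratins, 12423.5 bases in type II keratins and 13180.5 bases in KRTAP genes, against 48602 bases over all protein-coding genes. The smallest were 1493 bases, from KRT42 to KRT17, and 2893 bases from KRT75 to ENSBTAG00000054953.

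The other intermediate filament genes gave a point of comparison for the segment lengths. All 15 genes of that list were matched, with a median of 8 exons and 1758 coding bases, and a 3′ UTR in 14 of 15, whose median was 571 bases. VIM, the vimentin gene, DES, the desmin gene of muscle, and GFAP, of astrocytes, had segments of 61, 96, 162, 126 and 221 bases in a row, and were the only genes of the annotation with it. Their 61 and 96 are those of type II keratins, and their 162 is that of type I keratins. BFSP2, a filament protein of the eye lens, had 83, 157 and 162 bases like type I keratins, followed by 132 and 221, and its partner BFSP1 had 61 and 96. The pair of 61 and 96 alone is not particular to filament genes. It was held by 47 genes of the annotation, 17 of them named genes outside the members, among them IARS and PDE7A. The neurofilament gene NEFL and the nestin gene NES had 4 exons each and none of these rows. The lamin genes LMNA, LMNB1 and LMNB2 had 126 and 221 in a row. That pair was held by 49 genes of the annotation, 9 of them named genes outside the members. Among the 9 were EMILIN1 and PRRC2C, which are not on this list.

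Genes of the desmosome, to which keratin filaments attach, and of the cornified envelope had a higher median coding length than keratins, with single genes below them. Of 26 entries, 21 were matched, with a median of 15 exons and 2679 coding bases, and a 3′ UTR in 17 of 21, whose median was 465 bases. DSP, which links keratin filaments to the desmosome, had 24 exons and 8667 coding bases, while LOR, a protein of the cornified envelope, had 1 exon, 1011 coding bases and no 3′ UTR. CSTA, a protease inhibitor of the cornified envelope, had 294 coding bases, fewer than any keratin. Of 20 entries for hair follicle genes, 19 were matched, with a median of 5 exons and 1347 coding bases, and 15 of 19 had a 3′ UTR. HOXC13, a transcription factor of hair keratin genes, had 2 exons and a 3′ UTR of 1326 bases. FOXN1, a transcription factor of hair shaft differentiation, had 9 exons and a 3′ UTR of 1240 bases. Both had longer 3′ UTRs than any hair keratin, but they do not stand for the list. The 15 hair follicle genes with a 3′ UTR had a median of 689 bases (254 to 1811). Among them, MSX2 with 293 bases and GATA3 with 453 had shorter ones than the hair keratin KRT82 with 1006.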

How the data were processed

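The members and lists were chosen with earlier results of these data known. The file used was the deposited gene annotation, 1020224 feature lines whose start and end columns belong to no sample; per the file headers it describes cattle on ARS-UCD1.2. The submitters' processing notes list Seurat, STAR and Cell Ranger 3, without saying how a cattle annotation met reindeer reads. The depth of the libraries is not given because counts were not used.

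Exon number, coding length (without the stop codon), segments, intron phases and introns were read from the transcript with the longest coding sequence. UTR lengths are the longest over a gene's transcripts, present at 1 base or more. Gene spans run over all of a gene's transcripts, and the coding share of a span sets the longest coding sequence against that span. Keratin types came from a list of symbols, and sites of expression from general knowledge. No test was run, since the members are all those in the annotation. The named genes were the ends of each block, the extremes of each class, exceptions of strand and place, keratins without a 3′ UTR, and fixed well-known members; the genes named beside segment rows, short introns, genes without a symbol and other lists were chosen after their values were seen. The reading of models was tested on simulated data. Python 3.11.15, NumPy 2.4.6, SciPy 1.17.1 and matplotlib 3.10.9 were used.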

Additional observations from a re-analysis of the deposited data

How the results depend on the processing

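No paired analysis was possible because no sample values were used. Of 92 alternative values, over other transcripts, minimum lengths, complete models, single symbols, strands, block distances and, added after seeing the data, models without short introns, 88 stayed within the 95% binomial interval of the reported share or median, or within 1.5 times a count. Some of the 88 could not have moved. No member symbol was carried by more than 1 gene, the members of any biotype were also 64, and all 24 type II models had a start and a stop codon. The count of 88 therefore overstates how far the results were tried. The other 4 moved. Requiring at least 50 bases put the share with a 5′ UTR at 42.3% of type I keratins and 7.14% of KRTAP genes. With start and stop codon required, 100% of 13 KRTAP genes had a single exon, since KRTAP8-1 left. Adding the 40 single-exon genes without a symbol, an alternative chosen after seeing the data, put the share of KRTAP genes with a 3′ UTR at 22.2% of 54. The like addition for keratins lowered the share to 73.3% of 30 for type I and 66.7% of 30 for type II. Those 2 values stayed within the wide intervals and are among the 88. At a distance of at most 200000 bases the first chromosome 1 block split, giving 5 blocks. Members are few and share ancestry, so intervals cover counting error only. Lengths describe cattle models, not reindeer transcripts.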
